A study of Mus musculus with 24 samples.

Results

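A list of 52 genes that write, erase, read or remodel chromatin, many of them mutated in human lymphoid leukemia, was followed through 4 groups of irradiated mice. Members were taken by gene symbol, and a gene with several probe sets was represented by the probe set with the highest mean. Of the 52 genes, 51 had a probe set of their own among the 19938 genes named on the array, and all 51 passed the filter on low values together with 15647 genes in all. Ncor1, a nuclear receptor corepressor, was not analysed here. Chromatin regulators act mostly in complexes: writers add methyl or acetyl groups to histone tails, erasers remove them, and remodellers slide or eject nucleosomes. Polycomb complexes keep genes silent, whereas methylation of histone H3 at lysine 4 and histone acetylation accompany active genes. In B-cell precursors these systems accompany the opening and closing of antigen receptor loci and of stage-specific enhancers, and mutations of CREBBP, KMT2 genes, NSD2, SETD2 and Polycomb subunits recur in human lymphoid leukemia.

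Messenger RNA was measured on 1-colour Affymetrix mouse arrays, 1 array per mouse. The groups were preleukemic wild-type mice (WT, n = 3), leukemic wild-type mice (n = 4), preleukemic Pax5+/- mice (n = 7) and leukemic Pax5+/- mice (n = 10), and every mouse, the controls included, had received 2 Gy of radiation. Pax5 is the DNA-binding regulator by which early lymphoid cells take on B-cell identity, and Pax5+/- mice carry 1 functional copy. Before leukemia, the cells taken were pro-B and pre-B cells, whereas leukemic samples came from tumor-bearing marrow and are labelled B cells. All samples carry a label of 3 weeks after irradiation, leukemic ones included. The sources used here do not give the strain, the age or the way the Pax5 allele was made. The labels call the samples biological replicates, so p-values measure the spread between mice.

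The leukemic samples differed from the preleukemic ones in the RNA of markers of several cell types. Over the 9 B-lineage markers tested, means ran from 11.53 to 11.95 (log2 signal) on preleukemic arrays and from 8.99 to 11.22 on leukemic arrays, and 5 of 9 fell in leukemic Pax5+/- samples. Over 5 platelet markers the means ran from 6.52 to 6.82 before leukemia and from 8.27 to 11.14 in leukemia, and 5 of 5 rose in Pax5+/- samples. Granulocyte markers rose in 9 of 12, monocyte and macrophage markers in 7 of 8, stromal and endothelial markers in 7 of 9 and mitosis markers in 19 of 19. T-cell markers rose in 4 of 9 and NK-cell markers in 1 of 8, and 1 of 6 erythroid markers fell. Of all genes tested, 27.8% rose and 35.1% fell in Pax5+/- mice, and the NK-cell and erythroid counts lay below those shares. Erythroid means of 9.49 and 9.37 set leukemic wild-type arrays 1 and 2 apart from leukemic Pax5+/- arrays (6.47 to 6.95), and array 2 also had an NK-cell mean of 8.58 and the lowest B-lineage mean. Their part in the results was not tested, and in such bulk samples fewer cells of a type and less RNA per cell cannot be told apart. Preleukemic wild-type array 1 stood apart, with a granulocyte mean of 11.0 against 6.84 and 6.89 on the other arrays of its group and a mitosis mean of 9.77 against 7.74 and 7.90. Among the leukemic Pax5+/- arrays, 2, 7 and 9 lay at or below the highest preleukemic Pax5+/- granulocyte mean of 7.21. The Pax5 signal itself ran from 11.34 to 11.59 on preleukemic Pax5+/- arrays and from 11.47 to 12.16 on preleukemic wild-type arrays. It ran from 6.87 to 9.38 on leukemic Pax5+/- arrays other than array 2, which lay at 11.37, and from 6.34 to 10.74 on leukemic wild-type arrays. All 3 preleukemic wild-type arrays had high Y-linked signal and all 4 leukemic wild-type arrays low signal, so stage and sex cannot be told apart in the wild type. Among Pax5+/- arrays, Y-linked signal was high on 4 and low on 3 before leukemia, and high on 5 and low on 5 in leukemia. The sex mix thus differed between the genotypes at both stages.

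The first comparison set the leukemic against the preleukemic samples of each genotype. In Pax5+/- mice 15 members rose and 23 fell (limma, adjusted p under 0.05), and 13 were not called. The risers were 29.4% of the 51 members against 27.8% of all genes tested, and the fallers were 45.1% against 35.1%. In wild-type mice 8 members rose, against 18.7% of all genes, and 23 fell, against 20.4%. Kdm5b, Smarca4 and Hdac5 fell at least 2-fold in Pax5+/- mice, where 2.99% of all genes did, and Bmi1 was the 1 member that rose at least 2-fold, where 6.73% of all genes did. In wild-type mice Kmt2c, Kmt2e, Kdm5b, Hdac5, Smarca4 and Arid1b fell at least 2-fold (3.58% of all genes), and Bmi1 and Uhrf1 rose at least 2-fold (5.64%). Every leukemic Pax5+/- array lay above every preleukemic one for 4 members, against 11.7% of all genes, and below for 13 members, against 10.5%. In wild-type mice the corresponding counts were 8 members above, against 18.9%, and 23 below, against 20.4%. The median difference of the members was -0.04 in Pax5+/- and -0.27 in wild-type mice, where all genes tested had a median of -0.05 in both.

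The 2 stage comparisons share no samples. Of the members, 7 rose in both (Bmi1, Asxl1, Hdac1, Hdac3, Dnmt1, Uhrf1 and Smarca2), 21 fell in both, and 0 moved in opposite directions. Of all genes, 16.9% rose in both, 17.9% fell in both and 0.0639% moved in opposite directions. Another 10 were called in Pax5+/- mice alone, 3 in wild-type mice alone and 10 in neither, against 27.9%, 4.14% and 33% of all genes, and the difference between the genotypes is tested further on. The split into risers and fallers depended on how arrays were scaled. Centring each array on its median over all probe sets moved the median of all genes by 0.07 in Pax5+/- mice and gave 19 risers and 21 fallers among the members. Centring on the median of the genes tested, chosen after seeing the data, moved it by -0.20 in Pax5+/- and by -0.12 in wild-type mice, and gave 6 risers and 27 fallers in Pax5+/- mice. Over all genes tested the same centring turned 4354 risers and 5485 fallers in Pax5+/- mice into 2827 and 8930, and centring on all probe sets gave 5066 and 3502. Under the former Hdac1 (-0.06), Kat7 (0.00) and Setd1b (-0.04) no longer lay above 0.

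**Figure D1:**
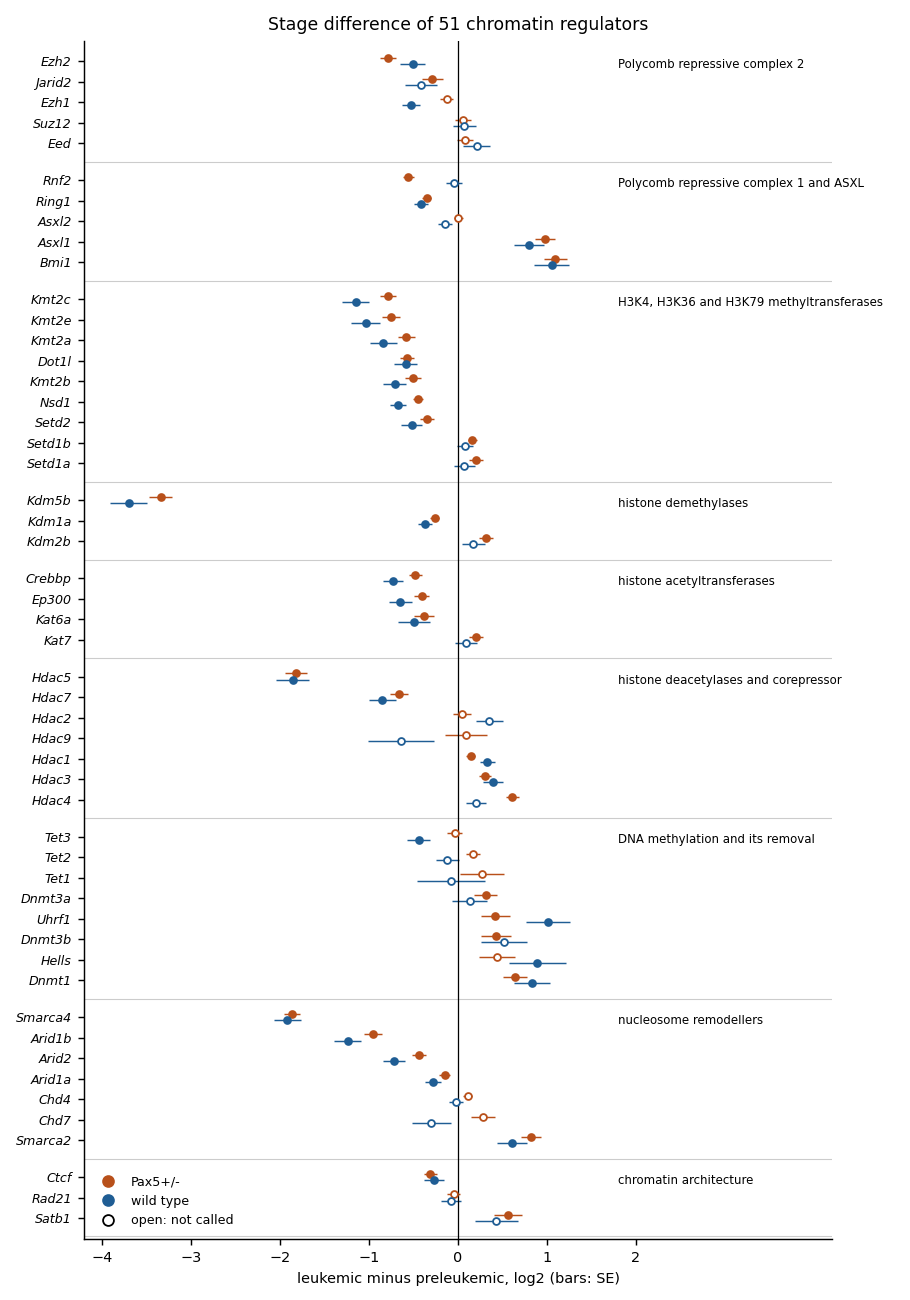
Leukemic minus preleukemic difference of the 51 members on the log2 scale, in rows by role, for Pax5+/- and wild-type mice, with bars for the standard error; open circles were not called. Kdm5b lies farthest from 0 in both genotypes (-3.34 and -3.70), and Bmi1 and Asxl1 lie farthest above 0 in Pax5+/- mice.

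Promoter windows of 250 bases before to 50 after the transcription start were taken from RefSeq (GRCm38.p6). Not every chromosome was used, and the windows used matched 42 members with 62 windows. They are shown for some members that moved in opposite directions, not throughout those with the largest differences: Kdm5b, Hdac5 and Ezh2 fell, and Bmi1 and Uhrf1 rose. Each is printed 5′ to 3′ on the gene's strand for the 250 bases before the start, with 30 bases after it for Hdac5 and Ezh2, where a match lies there. Capitals mark matches on either strand to an E-box (CACGTG) or to the E2F motifs TTCCCGC and TTGGCGC. The motif CCGGAAG of ETS factors was also searched, and no match of it lies in the windows printed.
Kdm5b (chr1:134559928-134560177, plus strand): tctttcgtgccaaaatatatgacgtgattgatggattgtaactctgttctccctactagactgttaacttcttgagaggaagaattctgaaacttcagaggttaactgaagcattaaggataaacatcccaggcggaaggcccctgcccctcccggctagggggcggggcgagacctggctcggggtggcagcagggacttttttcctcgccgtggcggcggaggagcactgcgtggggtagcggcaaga
Hdac5 (chr11:102230143-102230422, minus strand): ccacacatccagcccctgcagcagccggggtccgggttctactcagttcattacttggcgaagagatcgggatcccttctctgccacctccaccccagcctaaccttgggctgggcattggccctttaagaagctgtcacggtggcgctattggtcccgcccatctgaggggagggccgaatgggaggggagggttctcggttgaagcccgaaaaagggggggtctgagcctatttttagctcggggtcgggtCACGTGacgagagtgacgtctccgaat
Bmi1 (chr2:18676768-18677017, plus strand): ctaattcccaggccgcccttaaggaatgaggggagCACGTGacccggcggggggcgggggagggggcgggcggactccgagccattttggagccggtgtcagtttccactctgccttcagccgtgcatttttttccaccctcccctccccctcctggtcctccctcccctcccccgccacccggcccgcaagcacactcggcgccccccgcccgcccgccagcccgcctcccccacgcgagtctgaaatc
Ezh2 (chr6:47595001-47595280, minus strand): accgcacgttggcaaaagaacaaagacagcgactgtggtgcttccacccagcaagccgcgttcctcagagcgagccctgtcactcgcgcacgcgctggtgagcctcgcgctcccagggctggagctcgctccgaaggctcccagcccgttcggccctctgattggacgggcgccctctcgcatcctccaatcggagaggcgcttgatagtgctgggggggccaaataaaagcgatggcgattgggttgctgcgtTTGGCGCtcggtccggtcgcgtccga
Uhrf1 (chr17:56303087-56303336, plus strand): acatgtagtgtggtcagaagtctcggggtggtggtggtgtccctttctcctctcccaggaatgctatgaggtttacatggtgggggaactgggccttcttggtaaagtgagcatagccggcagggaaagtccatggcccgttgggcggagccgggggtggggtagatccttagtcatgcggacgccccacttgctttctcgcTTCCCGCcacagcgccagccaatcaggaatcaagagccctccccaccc
CACGTG stood in the windows of Hdac5, which fell, and of Bmi1, which rose. An E2F motif stood in the windows of Ezh2, which fell, and of Uhrf1, which rose. The window of Kdm5b held none of these letters, and neither did a second window of Uhrf1. Among all 32851 windows used, 7.15% held CACGTG, 4.6% TTCCCGC, 2.45% TTGGCGC and 8.86% CCGGAAG. Among the members' windows the shares were 6.45%, 8.06%, 4.84% and 9.68%. The median number of CpG dinucleotides was 29 in the members' windows and 7 in all windows. Such matches are letters in a window and not measured binding.

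Polycomb repressive complex 2 places trimethylation on lysine 27 of histone H3 through the catalytic subunit Ezh2 or Ezh1, with Suz12 and Eed as core subunits and Jarid2 as a recruiting partner. Ezh2 ran from 11.78 to 12.26 with a median of 12.00 on preleukemic Pax5+/- arrays and from 10.87 to 11.50 with a median of 11.25 on leukemic ones. Wild-type arrays gave 11.92, 11.82 and 11.83 before leukemia and 11.48, 11.11, 11.38 and 11.42 in leukemia. The groups did not overlap in either genotype, and Ezh2 fell by 0.79 ± 0.09 (SE, adjusted p = 1.07e-07) in Pax5+/- mice and by 0.51 ± 0.14 (adjusted p = 0.00512) in wild-type mice. Jarid2 averaged 10.16 ± 0.09 (SD, n = 7) before and 9.88 ± 0.29 (n = 10) in Pax5+/- leukemia, with overlapping arrays, and fell by 0.29 (adjusted p = 0.0347). That call ended without preleukemic array 3, 5 or 6 or leukemic array 5, 8, 9 or 10 (highest adjusted p = 0.0661). Ezh1 fell in wild-type mice by 0.53 (adjusted p = 0.000366) and had a difference of -0.13 in Pax5+/- mice (adjusted p = 0.0862). The core subunits were not called in either genotype: Suz12 had differences of 0.05 ± 0.09 (SE) and 0.07 ± 0.13, and Eed of 0.08 ± 0.09 and 0.21 ± 0.15, in Pax5+/- and wild-type mice. Without preleukemic wild-type array 1, which stood apart, Suz12 rose in wild-type mice by 0.31 (adjusted p = 0.0242). Jarid2 had -0.42 in wild-type mice (adjusted p = 0.0684), and fell there by 0.52 without that array (adjusted p = 0.0415).

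Polycomb repressive complex 1 ubiquitinates histone H2A through Ring1 or Rnf2, and Bmi1 is a subunit that supports self-renewal of stem cells. Bmi1 ran from 7.29 to 7.96 (median 7.70) on preleukemic and from 8.23 to 9.23 (median 8.78) on leukemic Pax5+/- arrays. On wild-type arrays it was 7.79, 7.56 and 7.27 before leukemia and 8.87, 8.22, 8.67 and 8.60 in leukemia. Every leukemic array lay above every preleukemic array of its genotype, and Bmi1 rose by 1.09 ± 0.13 (SE, adjusted p = 2.89e-07) and by 1.05 ± 0.20 (adjusted p = 0.00031). Ring1 fell by 0.35 in Pax5+/- and by 0.42 in wild-type mice (adjusted p = 2.63e-06 and 0.000171).

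Rnf2 ran from 9.64 to 9.85 (median 9.75) on preleukemic Pax5+/- arrays and from 8.97 to 9.39 (median 9.21) on leukemic ones. Both wild-type groups lay lower than the preleukemic Pax5+/- arrays, at 9.31, 9.49 and 9.19 before leukemia and at 9.12, 9.24, 9.49 and 9.26 in leukemia. Rnf2 fell by 0.56 ± 0.06 (SE, adjusted p = 6.43e-08) in Pax5+/- mice, and its difference in wild-type mice was -0.05 ± 0.09 (adjusted p = 0.709).

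The additional sex combs genes Asxl1 and Asxl2 encode scaffolds of a deubiquitinase that removes the mark of complex 1. Asxl1 ran from 8.67 to 9.32 (median 9.22) before and from 9.65 to 10.68 (median 10.09) in Pax5+/- leukemia, without overlap. It rose by 0.98 ± 0.11 (SE, adjusted p = 1.15e-07) in Pax5+/- and by 0.80 ± 0.17 (adjusted p = 0.000844) in wild-type mice. Asxl2 had differences of 0.00 ± 0.05 and -0.15 ± 0.08 and was not called.

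Of 26 further Polycomb genes, 23 were tested, and 6 rose and 7 fell in Pax5+/- mice, or 26.1% and 30.4%, near the shares of all genes. The alternative complex 1 subunits Pcgf6 and Pcgf2 rose by 1.12 and 1.07 (adjusted p = 1.57e-06 and 5.47e-07). The corepressor Bcor fell by 0.88 (adjusted p = 8.85e-06), and Kdm6b, which removes methylation from lysine 27, fell by 0.67 (adjusted p = 0.000598). Without the 7 leukemic Pax5+/- arrays of high granulocyte mean, Kdm6b had a difference of -0.50 (adjusted p = 0.0847).

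**Figure D2:**
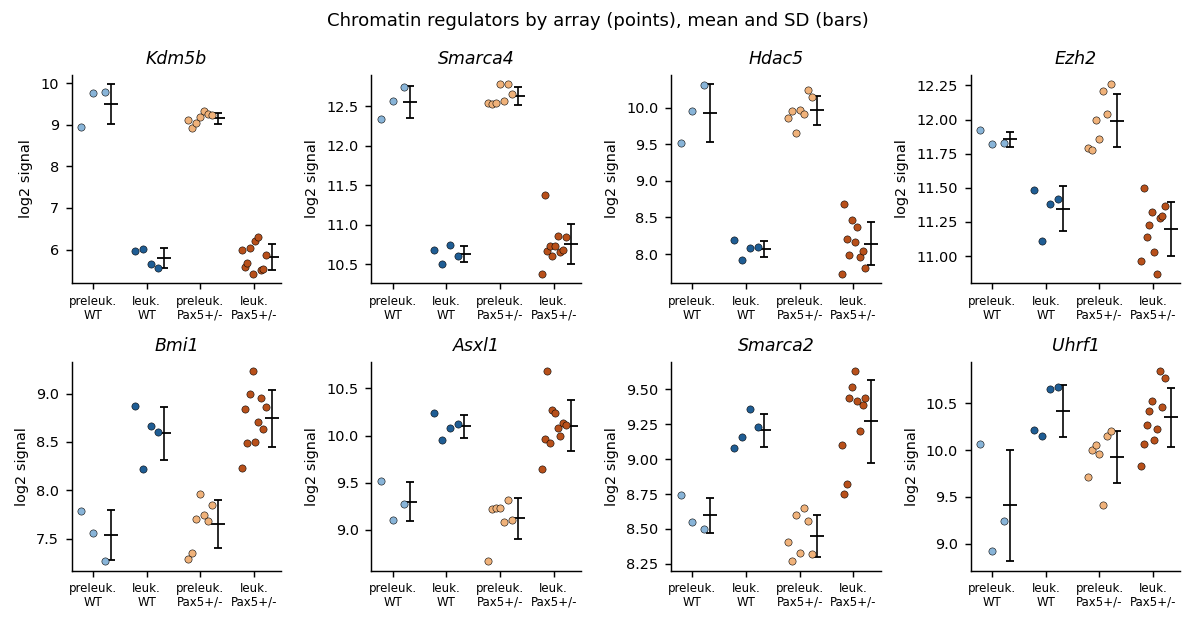
Log2 signal of 8 members on each array, by group, with the mean and SD as bars. Kdm5b, Smarca4 and Hdac5 separate leukemic from preleukemic arrays in both genotypes, with Smarca4 of leukemic Pax5+/- array 2 at 11.37 above the other leukemic arrays; Uhrf1 groups overlap in Pax5+/- mice.

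Among the methyltransferases of lysines 4, 36 and 79 of histone H3, 7 of 9 fell in both genotypes, with median differences over the 9 of -0.51 in Pax5+/- and -0.67 in wild-type mice. Of all genes 17.9% fell in both. Kmt2c, a methyltransferase that acts at enhancers, ran from 9.74 to 10.18 (median 10.11) on preleukemic and from 8.91 to 9.45 (median 9.29) on leukemic Pax5+/- arrays. On wild-type arrays it was 9.94, 10.31 and 10.31 before leukemia and 9.33, 8.89, 9.17 and 8.74 in leukemia. The groups did not overlap, and Kmt2c fell by 0.79 ± 0.09 (SE, adjusted p = 3.03e-07) and by 1.15 ± 0.15 (adjusted p = 3.45e-06).

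Kmt2e, a relative of Kmt2c without clear enzyme activity, ran from 10.57 to 10.91 (median 10.76) on preleukemic and from 9.60 to 10.31 (median 9.98) on leukemic Pax5+/- arrays. The wild-type arrays gave 10.61, 10.89 and 10.92 before and 10.09, 9.34, 9.79 and 9.85 in leukemia. These groups did not overlap either, and Kmt2e fell by 0.75 ± 0.10 (SE, adjusted p = 2.43e-06) and by 1.04 ± 0.16 (adjusted p = 3.34e-05). Kmt2a, the gene rearranged in infant leukemia, averaged 10.56 ± 0.21 (SD, n = 7) before and 9.98 ± 0.19 (n = 10) in Pax5+/- leukemia and fell by 0.58, and by 0.84 in wild-type mice. The methyltransferase of lysine 79, Dot1l, averaged 9.54 ± 0.17 (n = 7) and 8.96 ± 0.20 (n = 10) and fell by 0.57, and by 0.59 in wild-type mice. Arrays of Kmt2a and Dot1l overlapped in Pax5+/- mice and not in wild-type mice. Kmt2b, Nsd1 and Setd2 fell by 0.35 to 0.51 in Pax5+/- and by 0.52 to 0.71 in wild-type mice.

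Setd1a and Setd1b, catalytic subunits of the complexes that methylate lysine 4 at most promoters, differed in sign from the other 7. They rose by 0.20 and 0.16 in Pax5+/- mice (adjusted p = 0.0253 and 0.0155), differences that became 0.00 and -0.04 when arrays were centred on the genes tested, and were 0.07 and 0.08 in wild-type mice, not called. Without preleukemic Pax5+/- array 1 Setd1a had an adjusted p of 0.0525. Of 21 partner genes of these enzymes, 20 were tested. In Pax5+/- mice 6 rose and 7 fell, or 30% and 35%, against 27.8% and 35.1% of all genes. Aff1, a partner of KMT2A in fusions and a subunit of the super elongation complex, fell by 1.37 ± 0.12 (SE, adjusted p = 2.81e-09), and Kmt5b, a methyltransferase of lysine 20 of histone H4, fell by 0.88 (adjusted p = 2.32e-08). Kmt5a, which places the first methyl group on that lysine, rose by 0.53 (adjusted p = 0.000101). Mllt3, another elongation subunit, rose by 0.57 (adjusted p = 0.00568), and was at 0.11 (adjusted p = 0.681) without the arrays of high granulocyte mean.

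Methylation of lysine 9 of histone H3 marks heterochromatin, and none of its writers is among the members. Of 10 genes tested for it, 5 rose and 2 fell in Pax5+/- mice, against 27.8% and 35.1% of all genes. Cbx5, which encodes heterochromatin protein 1 alpha, rose by 1.45 ± 0.16 (SE, adjusted p = 7.82e-08) and by 1.73 in wild-type mice (adjusted p = 1.18e-05). Trim28, the corepressor of zinc finger proteins, rose by 0.55 and 0.64 (adjusted p = 1.86e-07 and 3.16e-05). The histone chaperone Daxx fell by 0.34 in Pax5+/- mice (adjusted p = 0.000147), and Cbx1, a relative of Cbx5, by 0.28 (adjusted p = 0.00997).

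The widest difference of any member was in Kdm5b, a demethylase that removes di- and trimethylation from lysine 4. It ran from 8.93 to 9.32 (median 9.19) on preleukemic Pax5+/- arrays and from 5.42 to 6.31 (median 5.77) on leukemic ones. Wild-type arrays gave 8.95, 9.77 and 9.78 before leukemia and 5.97, 6.02, 5.66 and 5.55 in leukemia. No leukemic array came near a preleukemic one, and no array of the lower groups lay at the dim level (the 30th percentile of its array, 5.18 to 5.35). Kdm5b fell by 3.34 ± 0.13 (SE, adjusted p = 1.4e-14) in Pax5+/- mice, a 10.2-fold difference in signal, and in wild-type mice it fell by 3.70 ± 0.21 (adjusted p = 3.28e-11), or 13.0-fold. Preleukemic wild-type array 1, which had the high granulocyte mean, gave the lowest preleukemic wild-type value of 8.95, and without it the wild-type difference was -3.97. Kdm1a, the demethylase LSD1, fell by 0.26 and 0.37 (adjusted p = 0.000303 and 0.00134). Kdm2b, which recruits complex 1 to CpG islands, averaged 7.83 ± 0.20 (SD, n = 7) before and 8.13 ± 0.14 (n = 10) in Pax5+/- leukemia and rose by 0.31 (adjusted p = 0.00297). Its difference was 0.17 in wild-type mice (adjusted p = 0.302), 0.11 in Pax5+/- mice with arrays centred on the genes tested, and 0.28 (adjusted p = 0.0814) without the arrays of high granulocyte mean.

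Of 12 other demethylases listed apart from the Polycomb genes, 12 fell in Pax5+/- mice (median difference -0.50) and 11 in wild-type mice (median -0.69), against 35.1% and 20.4% of all genes. The lysine 27 demethylases were listed with Polycomb: Kdm6b fell, as given above, and the X-linked Kdm6a was not called, with -0.37 ± 0.17 (SE, adjusted p = 0.0647) in Pax5+/- and 0.20 ± 0.26 (adjusted p = 0.573) in wild-type mice. Kdm1b, the second LSD family gene, fell by 2.05 ± 0.10 (SE, adjusted p = 1.64e-13) and by 2.35 ± 0.15 (adjusted p = 1.33e-10). Kdm7a, which acts on lysines 9 and 27, fell by 1.15 ± 0.25 (adjusted p = 0.000544) and by 1.60 ± 0.39 (adjusted p = 0.00294). Phf8 fell by 0.73 and 0.77. Kdm5c, an X-linked relative of Kdm5b, was the 1 of these 12 not called in wild-type mice, with a fall of 0.39 in Pax5+/- and a difference of -0.04 ± 0.15 (adjusted p = 0.848) in wild-type mice, where the groups also differ in sex. In Pax5+/- mice 10 of 12 fell without the arrays of high granulocyte mean, where Kdm3b (-0.18) and Kdm4b (-0.23) had adjusted p of 0.0819 and 0.153. In wild-type mice 8 of 12 fell without preleukemic array 3 and also with sex as a term. Sex did not vary within either wild-type group, so that term rests on the Pax5+/- arrays alone.

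**Figure D3:**
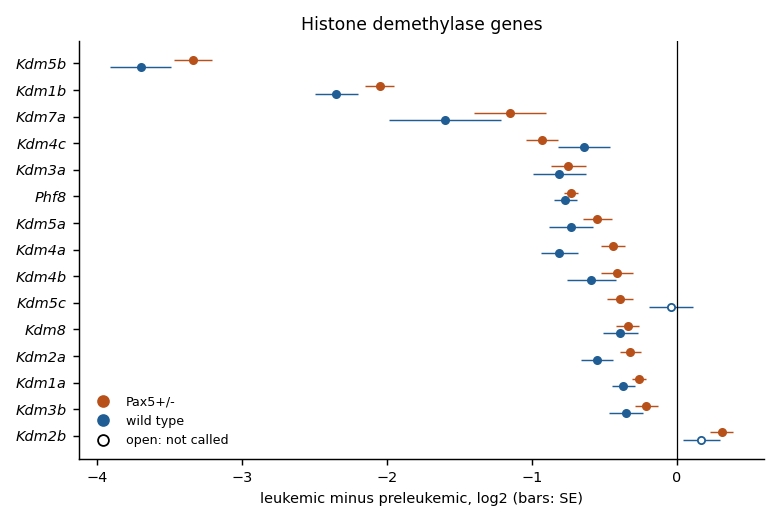
Leukemic minus preleukemic difference (log2, with standard error) of the 3 members and 12 other genes that encode histone demethylases, Kdm6a and Kdm6b not among them, for both genotypes; open circles were not called. Kdm2b is the 1 plotted gene above 0, and Kdm5b and Kdm1b lie below -2 in both genotypes.

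Acetylation of histones is written by acetyltransferases, of which 3 of 4 members fell in both genotypes, against 17.9% of all genes. Crebbp, a coactivator often mutated in relapsed lymphoid leukemia, ran from 11.24 to 11.46 (median 11.33) before and from 10.58 to 11.10 (median 10.91) in Pax5+/- leukemia, without overlap. It fell by 0.48 ± 0.07 (SE, adjusted p = 7.7e-06) in Pax5+/- and by 0.73 ± 0.11 (adjusted p = 3.14e-05) in wild-type mice. Its paralog Ep300 averaged 10.38 ± 0.17 (SD, n = 7) and 9.97 ± 0.19 (n = 10) and fell by 0.41 and 0.65 (adjusted p = 0.000262 and 0.000549). Kat6a fell by 0.38 and 0.49 (adjusted p = 0.00655 and 0.0325), the latter not called without leukemic wild-type array 2 or 4 or preleukemic wild-type array 2 or 3 (highest adjusted p = 0.12). Kat7, which acetylates histones at replication origins, rose by 0.20 in Pax5+/- mice (adjusted p = 0.0298), a difference of 0.00 with arrays centred on the genes tested, and had 0.09 in wild-type mice. Its call ended without preleukemic Pax5+/- array 2, 4 or 5 or leukemic Pax5+/- array 3 (highest adjusted p = 0.0729).

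Of 13 other writers and readers of acetylation tested, 9 fell in Pax5+/- mice and 1 rose, against 35.1% and 27.8% of all genes. The riser was Kat2a, the GCN5 acetyltransferase of the SAGA complex, which rose by 1.23 ± 0.09 (SE, adjusted p = 2.25e-10) and by 1.02 in wild-type mice (adjusted p = 8.4e-06). Ing4, a reader of methylated lysine 4 in an acetyltransferase complex, fell by 0.70 (adjusted p = 2.12e-07) and Kat8 by 0.60 (adjusted p = 2.19e-05). In wild-type mice 9 fell and 2 rose, against 20.4% and 18.7% of all genes.

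The deacetylases did not move as a block. Class IIa enzymes, which serve as signal-regulated corepressors, went both ways. Hdac5 ran from 9.65 to 10.25 (median 9.95) on preleukemic and from 7.73 to 8.68 (median 8.10) on leukemic Pax5+/- arrays. On wild-type arrays it was 9.52, 9.96 and 10.31 before leukemia and 8.19, 7.92, 8.08 and 8.10 in leukemia. Hdac5 therefore separated the stages in both genotypes and fell by 1.82 ± 0.12 (SE, adjusted p = 6.63e-11), or 3.54-fold, and by 1.86 ± 0.19 (adjusted p = 2.33e-07), or 3.62-fold. Hdac7, a class IIa repressor of myeloid genes in B-cell precursors, averaged 10.34 ± 0.14 (SD, n = 7) and 9.68 ± 0.23 (n = 10) and fell by 0.66 and 0.85 (adjusted p = 8.06e-06 and 0.000188), also without overlap.

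Hdac4 went up: it ran from 7.46 to 7.87 (median 7.70) before and from 7.97 to 8.40 (median 8.33) in Pax5+/- leukemia and rose by 0.61 ± 0.07 (SE, adjusted p = 3.63e-07). In wild-type mice it was 8.23, 7.80 and 7.83 before and 8.25, 8.09, 8.20 and 8.05 in leukemia, with a difference of 0.20 (adjusted p = 0.172). The first of these wild-type values is the array that stood apart, and without it Hdac4 rose there by 0.34 (adjusted p = 0.0221). A second probe set of Hdac4 gave 1.12 and 0.68, called in both genotypes. The last class IIa member, Hdac9, had 0.09 ± 0.24 (SE) in Pax5+/- and -0.64 ± 0.37 in wild-type mice and was not called.

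The class I members Hdac1, Hdac2 and Hdac3, catalytic subunits of the NuRD, Sin3 and NCoR complexes, had small positive differences. Hdac3 rose by 0.30 and 0.39 (adjusted p = 0.001 and 0.00798), the latter not called without preleukemic wild-type array 2 (adjusted p = 0.0777). The Pax5+/- difference of Hdac3 was 0.10 with arrays centred on the genes tested and not called. Hdac1 rose by 0.14 in Pax5+/- mice (adjusted p = 0.0286) and by 0.33 in wild-type mice (adjusted p = 0.00285). The first of these was -0.06 with arrays centred on the genes tested, and its call ended without preleukemic array 3, 4, 6 or 7 or leukemic array 5 (highest adjusted p = 0.0554). Hdac2 had 0.04 and 0.35 and was not called, the latter with an adjusted p of 0.0691. Without preleukemic wild-type array 1 Hdac2 rose in wild-type mice by 0.45 (adjusted p = 0.0318). Of 22 partners tested, 7 rose and 9 fell in Pax5+/- mice, or 31.8% and 40.9%, against 27.8% and 35.1% of all genes. Mta1 of the NuRD complex rose by 1.19 ± 0.09 (SE, adjusted p = 5.82e-10), and the cytoplasmic tubulin deacetylase Hdac6 rose by 0.58 (adjusted p = 1.31e-05). Hdac8, the class I enzyme that deacetylates cohesin, fell by 2.07 ± 0.11 (adjusted p = 1.23e-12) and by 2.12 ± 0.17 in wild-type mice (adjusted p = 6.19e-09). The nuclear sirtuin Sirt7 fell by 0.95 (adjusted p = 5.13e-10).

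DNA methylation is copied after replication by Dnmt1, guided by Uhrf1 and the remodeller Hells, set anew by Dnmt3a and Dnmt3b, and removed through oxidation by Tet enzymes. In Pax5+/- mice 4 of the 8 members rose and 0 fell, against 27.8% and 35.1% of all genes. In wild-type mice 3 rose and 1 fell, against 18.7% and 20.4%. Uhrf1 was 10.07, 8.92 and 9.24 on preleukemic and 10.21, 10.15, 10.65 and 10.67 on leukemic wild-type arrays. On Pax5+/- arrays it ran from 9.41 to 10.20 (median 10.00) before and from 9.83 to 10.84 (median 10.35) in leukemia. The wild-type groups were just apart, the highest preleukemic value again being array 1, and the Pax5+/- groups overlapped. Uhrf1 rose by 1.01 ± 0.25 (SE, adjusted p = 0.00279) in wild-type and by 0.42 ± 0.16 (adjusted p = 0.0253) in Pax5+/- mice. The Pax5+/- call ended without preleukemic array 1 or 5 (highest adjusted p = 0.0734) and with arrays centred on the genes tested (0.23).

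Dnmt1 averaged 9.61 ± 0.26 (SD, n = 7) before and 10.25 ± 0.22 (n = 10) in Pax5+/- leukemia and rose by 0.64 ± 0.13 (SE, adjusted p = 0.00016), and by 0.83 ± 0.20 (adjusted p = 0.00198) in wild-type mice. Hells was 8.50, 7.38 and 7.45 on preleukemic and 8.57, 8.41, 8.97 and 8.74 on leukemic wild-type arrays, which overlap through array 1. It rose there by 0.89 ± 0.32 (adjusted p = 0.0293) and by 1.25 without array 1. That call ended without leukemic array 3 or 4 or preleukemic array 2 or 3 (highest adjusted p = 0.153). In Pax5+/- mice Hells had 0.44 ± 0.20 (adjusted p = 0.0647).

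The de novo enzymes varied between leukemias. Dnmt3b ran from 6.51 to 6.74 (median 6.60) before and from 6.52 to 7.95 (median 6.99) in Pax5+/- leukemia, so that some leukemic arrays stayed at the preleukemic level while others lay above it. It rose by 0.43 ± 0.17 (SE, adjusted p = 0.0336). Dnmt3a rose by 0.31 ± 0.13 (adjusted p = 0.0376), with leukemic Pax5+/- array 1 at 9.53 and the other 9 at 8.70 or lower. Both calls ended when any of 6 arrays was left out (highest adjusted p = 0.0596 for Dnmt3b and 0.0741 for Dnmt3a). For Dnmt3b these were preleukemic arrays 1, 5 and 7 and leukemic arrays 7, 9 and 10, and for Dnmt3a preleukemic arrays 1, 3, 4 and 7 and leukemic arrays 6 and 10. With arrays centred on the genes tested the differences were 0.23 for Dnmt3b and 0.11 for Dnmt3a, neither called. Tet3 fell in wild-type mice by 0.44 (adjusted p = 0.0093), a call that ended without preleukemic array 3 (adjusted p = 0.0739), and had -0.04 in Pax5+/- mice. Tet1 and Tet2 had 0.27 ± 0.25 and 0.17 ± 0.08 in Pax5+/- mice and were not called.

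Of 8 partners of DNA methylation tested, 2 rose and 5 fell in Pax5+/- mice, against 27.8% and 35.1% of all genes. Cdca7, which recruits Hells to chromatin, rose by 1.56 ± 0.15 (SE, adjusted p = 1.96e-08) and by 2.05 ± 0.24 in wild-type mice (adjusted p = 1.16e-06). Idh2, whose mutant form makes an inhibitor of Tet enzymes, rose by 0.27 (adjusted p = 0.0197), and had 0.07 with arrays centred on the genes tested. The methyl-CpG binding Mbd1 and the Uhrf1 relative Uhrf2 fell by 0.53 and 0.34 (adjusted p = 0.00011 and 0.00176), and Uhrf2 had -0.28 (adjusted p = 0.068) without the arrays of high granulocyte mean.

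The SWI/SNF (BAF) remodellers use either Smarca4 (BRG1) or Smarca2 (BRM) as the ATPase, and these went opposite ways. Smarca4 ran from 12.53 to 12.78 (median 12.56) on preleukemic and from 10.38 to 11.37 (median 10.70) on leukemic Pax5+/- arrays. On wild-type arrays it was 12.34, 12.57 and 12.74 before leukemia and 10.68, 10.50, 10.74 and 10.61 in leukemia. The stages lay far apart in both genotypes, and Smarca4 fell by 1.87 ± 0.09 (SE, adjusted p = 5.64e-13), or 3.66-fold, and in wild-type mice it fell by 1.92 ± 0.15 (adjusted p = 2.72e-09), or 3.78-fold. Leukemic Pax5+/- array 2, the array with preleukemic Pax5 signal, was the leukemic array with the highest Smarca4. Smarca2 ran from 8.27 to 8.65 (median 8.41) before and from 8.75 to 9.63 (median 9.40) in Pax5+/- leukemia, without overlap. It rose by 0.82 ± 0.11 (adjusted p = 1.16e-06) and by 0.61 ± 0.17 in wild-type mice (adjusted p = 0.00596).

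The ARID subunits, which define the BAF and PBAF forms, fell to different degrees. Arid1b ran from 10.88 to 11.12 (median 11.09) on preleukemic and from 9.57 to 10.44 (median 10.07) on leukemic Pax5+/- arrays. The wild-type arrays gave 10.76, 11.26 and 11.37 before and 9.99, 9.71, 10.04 and 9.82 in leukemia. The groups did not overlap, and Arid1b fell by 0.96 ± 0.10 (SE, adjusted p = 3.74e-08) and by 1.24 ± 0.15 (adjusted p = 2.54e-06). Arid2 averaged 10.51 ± 0.16 (SD, n = 7) and 10.07 ± 0.14 (n = 10) and fell by 0.44 and 0.72 (adjusted p = 6.19e-05 and 9e-05).

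Arid1a, the paralog most often mutated in cancer, fell by 0.15 and 0.28 (adjusted p = 0.0326 and 0.0153). In Pax5+/- mice that call ended without preleukemic array 4, 5 or 6 or leukemic array 1, 6 or 8 (highest adjusted p = 0.083), and in wild-type mice without preleukemic array 3 (adjusted p = 0.143). The CHD remodellers Chd4 and Chd7 had 0.11 ± 0.05 (SE) and 0.28 ± 0.14 in Pax5+/- mice and were not called. Chd7 had 29 other probe sets, of which 11 rose in Pax5+/- mice, with differences from -0.01 to 0.74. In wild-type mice Chd7 had -0.30 ± 0.22 (SE, adjusted p = 0.293), and of its other probe sets 0 rose and 2 fell, with differences from -0.41 to 0.07. Of 33 partners tested, 7 rose and 15 fell in Pax5+/- mice, or 21.2% and 45.5%, against 27.8% and 35.1% of all genes. Bcl7a, a BAF subunit altered in B-cell lymphoma, fell by 2.76 ± 0.13 (adjusted p = 1.34e-13) and in wild-type mice it fell by 2.65 ± 0.20 (adjusted p = 1.69e-09). Chd2 fell by 0.68 (adjusted p = 1.21e-05). Bcl11a, a BAF-associated zinc finger protein needed for B-cell development, and the helicase Ruvbl1 rose by 0.77 and 0.76 (adjusted p = 0.000791 and 4.01e-05).

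Chromatin architecture is held by Ctcf and cohesin, which fold the antigen receptor loci into loops, and by the AT-rich DNA binder Satb1. Ctcf ran from 10.03 to 10.32 (median 10.13) before and from 9.45 to 10.01 (median 9.87) in Pax5+/- leukemia, just without overlap, and fell by 0.31 ± 0.07 (SE, adjusted p = 0.000502). In wild-type mice it fell by 0.27 with an adjusted p of 0.0498, a call that ended when any of 18 of the 24 arrays was left out. Satb1 averaged 10.23 ± 0.18 (SD, n = 7) and 10.79 ± 0.45 (n = 10) and rose by 0.56 ± 0.16 (adjusted p = 0.00431). Leukemic Pax5+/- array 1 was the exception at 9.64, below every preleukemic Pax5+/- array, while the other 9 ran from 10.64 to 11.25. In wild-type mice Satb1 had 0.43 ± 0.24 (adjusted p = 0.162). The cohesin subunit Rad21 had -0.05 and -0.08 and was not called. Of 9 cohesin partners tested, 2 rose and 3 fell in Pax5+/- mice, against 27.8% and 35.1% of all genes. Wapl, which releases cohesin from DNA, rose by 1.86 ± 0.14 (adjusted p = 2.39e-10), and Nipbl, which loads it, fell by 1.23 ± 0.10 (adjusted p = 5.88e-10). Wapl also rose by 1.75 and Nipbl fell by 1.60 in wild-type mice (adjusted p = 2.1e-06 and 6.35e-08). Smc1a, a ring subunit, rose by 0.25 (adjusted p = 0.0123) and Mau2, the partner of Nipbl, fell by 0.28 (adjusted p = 0.00207). With arrays centred on the genes tested Smc1a had 0.05, and without the arrays of high granulocyte mean Smc1a had 0.16 and Mau2 -0.19 (adjusted p = 0.296 and 0.105).

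Over all the partner lists 150 of 162 genes were tested, and 36 rose and 69 fell in Pax5+/- mice, or 24% and 46%, against 27.8% and 35.1% of all genes. In wild-type mice 30 rose and 58 fell, or 20% and 38.7%, against 18.7% and 20.4%.

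Leukemic Pax5+/- arrays 2, 7 and 9, with granulocyte means in or below the preleukemic range, were set apart. These 3 arrays against the 7 preleukemic ones gave 11 members higher and 20 lower, against 23% and 18.9% of all genes, an alternative chosen after seeing the data. Kdm5b differed there by -3.34, Smarca4 by -1.66, Hdac5 by -1.60 and Bmi1 by 1.08 (adjusted p = 5.88e-09, 8.3e-08, 1.54e-06 and 5.54e-05). Ezh2 differed by -0.77 and Arid1b by -0.81. The calls of 8 members ended with fewer leukemic arrays. Their differences were -0.29 for Jarid2, -0.24 for Setd2, 0.28 for Kdm2b, 0.17 for Kat7, 0.11 for Hdac1, 0.23 for Dnmt3a, 0.32 for Uhrf1 and -0.07 for Arid1a, against -0.29, -0.35, 0.31, 0.20, 0.14, 0.31, 0.42 and -0.15 with all leukemic arrays. Tet2 was called there, with a difference of 0.23 (adjusted p = 0.0285). Monocyte, platelet and mitosis means of these 3 arrays still lay above the preleukemic range.

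Whether the stage difference depended on genotype was tested as the difference of the stage differences. No member was called, against 0.185% of all genes. An unadjusted p under 0.05 was found for 6 members, and the share of all genes under it was not counted. The closest was Rnf2, whose difference was more negative in Pax5+/- than in wild-type mice by 0.51 (-0.51 ± 0.11, SE, adjusted p = 0.0604). It was called without leukemic wild-type array 1, preleukemic wild-type array 2 or leukemic Pax5+/- array 4, and its adjusted p ran from 0.033 to 0.324 when 1 array was left out. Members called in 1 genotype alone are therefore not shown to differ between genotypes.

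Between genotypes before leukemia, 1 member was called, against 0.786% of all genes. This was Rnf2, higher in preleukemic Pax5+/- (9.75 ± 0.07, SD, n = 7) than in preleukemic wild-type samples (9.33 ± 0.15, n = 3) by 0.42 ± 0.08 (SE, adjusted p = 0.0124). The groups did not overlap, and they also differed in sex mix. The call ended without preleukemic wild-type array 3 (0.36, adjusted p = 0.168) and held without array 1, which stood apart (0.41, adjusted p = 0.0445). Between genotypes in leukemia no member was called, against 0.16% of all genes. There 1 of the 51 members had an unadjusted p under 0.05, and the share of all genes under it was not counted. This was Ezh1, with a difference of 0.24 ± 0.08 (adjusted p = 0.303), not called.

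**Figure D4:**
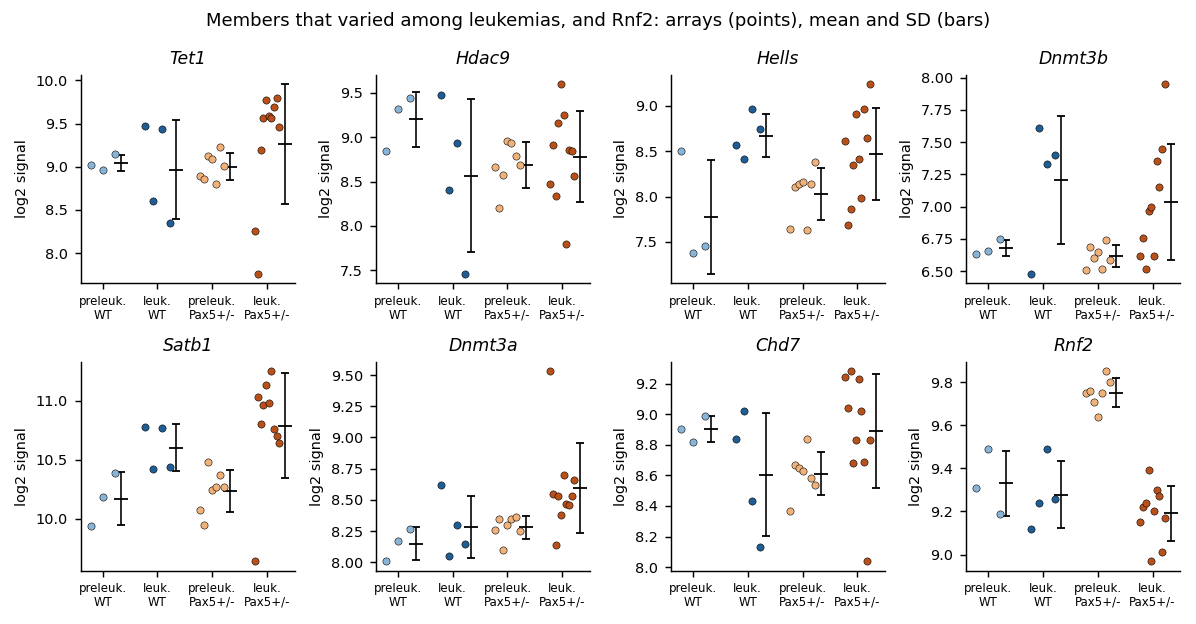
Log2 signal on each array by group, with the mean and SD as bars, for 7 members that varied among leukemic arrays and for Rnf2. Tet1 is at 7.76 and 8.26 on 2 leukemic Pax5+/- arrays and from 9.19 to 9.80 on the other 8; Rnf2 of preleukemic Pax5+/- mice lies above the other groups.

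Members also varied among leukemias of 1 genotype. The median SD of the members was 0.191 over the leukemic and 0.141 over the preleukemic Pax5+/- arrays, against 0.17 and 0.123 over all genes. Tet1 spread widely among leukemias, with an SD of 0.69 over the 10 leukemic Pax5+/- arrays and 0.16 over the 7 preleukemic ones. Leukemic arrays 1 and 2 had 8.26 and 7.76, below every preleukemic Pax5+/- array, and the other 8 ran from 9.19 to 9.80. In wild-type leukemia it was 9.47 and 9.44 on arrays 1 and 3 and 8.60 and 8.35 on arrays 2 and 4. Hdac9 and Hells each had an SD of 0.51 over the leukemic Pax5+/- arrays, and Dnmt3b and Satb1 of 0.45. In wild-type leukemia Hdac9 ran from 7.46 to 9.48.

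To describe this spread, each gene was fitted across the 10 leukemic Pax5+/- arrays against the mean of the mitosis markers. Ezh2 was the 1 member whose positive slope was called, 0.55 ± 0.10 log2 units per log2 unit (SE, adjusted p = 0.0371), against 0.461% of all genes. It ran from 10.87 on array 7, whose mitosis mean of 9.00 was the lowest, to 11.50 on array 2, whose mean of 10.02 was the highest. No member was called without the 2 arrays whose mitosis mean lay farthest from the median, and none with the granulocyte mean as a second term. The call also ended without any 1 of arrays 2 to 10, and it held without array 1. No member had a called negative slope, against 0.186% of all genes, and Kdm5b had -0.83 ± 0.16 (adjusted p = 0.054). Dnmt1 had 0.47 ± 0.16 (adjusted p = 0.349). The mitosis mean was higher in leukemia than before it in 19 of 19 genes, whereas Ezh2 was lower, so the slope within leukemias and the stage difference of Ezh2 had opposite signs.

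**Figure D5:**
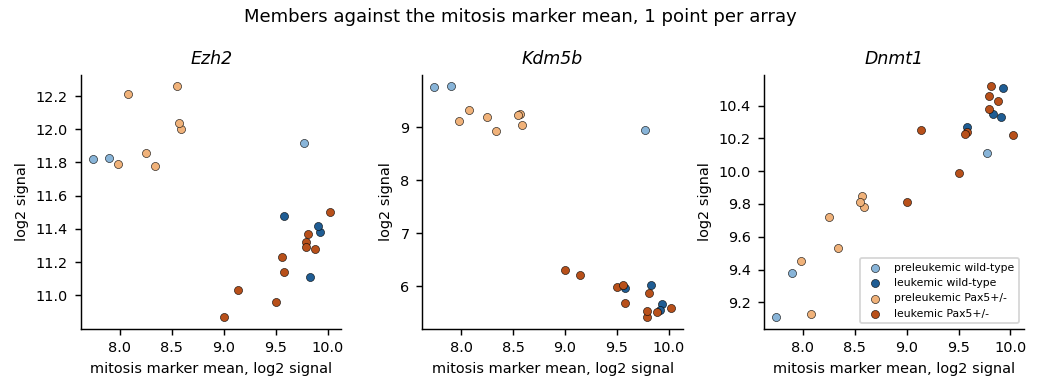
Log2 signal of Ezh2, Kdm5b and Dnmt1 against the mean of the mitosis markers, 1 point per array, coloured by group. Preleukemic and leukemic arrays form separate groups for Ezh2 and Kdm5b. For Dnmt1, preleukemic wild-type array 1 (10.11, at a mitosis mean of 9.77) lies among the leukemic arrays. Within the leukemic Pax5+/- arrays Ezh2 runs from 10.87 to 11.50.

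Against the granulocyte mean no member had a called slope in either direction, against 0.275% of all genes with a positive and 0.0064% with a negative slope. There 4 members had a negative slope and 0 a positive one at an unadjusted p under 0.05. Of 15635 genes, 1646 had such a p in either direction. Arid1b had a slope of -0.11 ± 0.04 (SE, adjusted p = 0.401), which describes a lower signal on arrays with more granulocyte RNA.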

How the data were processed

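Values were the log2 signals deposited by the authors for 35556 probe sets on 24 arrays, which per the submitters' processing notes came from RMA and oligo (R), with versions not given in the sources used here. RMA subtracts background, equalizes array distributions and summarizes probes, so a change shared by most genes can be removed. An offset between the stages remained: array medians ran from 6.104 to 6.219 on leukemic and from 6.226 to 6.296 on preleukemic arrays. The number of arrays limits the precision. No batch or scan date is given.

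Probe sets were named through the platform annotation: 21789 had 1 symbol, 1621 several and 12146 none. Genes at or above the 30th percentile of their array on at least 3 arrays were tested (15647). Group means were fitted on all 24 arrays with limma 3.58.1 in R 4.3.3, with 5 contrasts and Benjamini-Hochberg adjustment over all genes tested, and genes under an adjusted p of 0.05 were called. Every adjusted p is from limma. Slopes were fitted with limma over 10 arrays. The fits were tested on simulated data with noise independent between genes and of equal spread in all groups. The real groups differed in spread, so that test does not show how well the calls hold here.

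The members and lists were chosen with earlier results of these data known. All members are accounted for. Every member called with a log2 difference of at least 1 in any comparison has its array values given, and so do others where groups are described. Of the rest, the 2 of each role with the largest difference in Pax5+/- mice have values, and for partners up to 2 called rises and 2 called falls. The demethylases Phf8, Kdm5c, Kdm6a, Kdm3b and Kdm4b were named after their values were seen. Promoters were read from RefSeq (GRCm38.p6). No 2 arrays were duplicates: the closest pair differed by 0.22 (root mean square, log2).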

Additional observations from a re-analysis of the deposited data

Results flagged for a closer look

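Dixon's test was run on 153 sets of member values within a group of 4 to 10 arrays. In 8 sets an array lay far from the others of its group. Chance sets apart about 1 in 20, so 8 of 153 is near the share from chance alone. Leukemic Pax5+/- array 1 accounted for 3 of the 8. Its Dnmt3a was 9.53, with the next array at 8.70. Its Satb1 was 9.64 (nearest 10.64) and its Ctcf 9.45 (nearest 9.76). This array had the highest monocyte mean of all arrays, 9.48, and a granulocyte mean of 10.66, whose part in these values was not tested. Smarca4 on leukemic Pax5+/- array 2 was 11.37, with the next array at 10.86, and the same array had the highest Pax5 signal of its group and a granulocyte mean of 6.77. Chd7 on leukemic Pax5+/- array 9 was 8.04 (nearest 8.68), and without that array the Pax5+/- stage difference of Chd7 was called. Before leukemia, Asxl1 on Pax5+/- array 1 was 8.67 (nearest 9.08) and Dnmt3a on Pax5+/- array 3 was 8.10 (nearest 8.25). Nsd1 on leukemic wild-type array 3 was 9.78, above the next array at 9.43.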

How the results depend on the processing

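Over the alternatives other than leaving out 1 array, members rising ranged from 6 to 19 and members falling from 20 to 27 in Pax5+/- mice, the 6 coming from centring on the genes tested, which also turned Hdac1 to -0.06, Kat7 to 0.00 and Setd1b to -0.04. Over all genes the same alternatives gave 2827 to 5066 rising and 2965 to 8930 falling in Pax5+/- mice. Members called between preleukemic genotypes went from 1 to 0 with the replicate number as a block. They ranged from 0 to 1 when 1 array was left out. For the difference of the stage differences, 1 member was lower under repeated quantile normalization, 1 under centring on the genes tested, and 0 to 1 when 1 array was left out. Members with a positive mitosis slope were 0 with both terms in the fit, 0 without the 2 farthest arrays, and 0 to 1 in fits leaving out 1 array. Members with a negative slope were 1 with trended and robust variances and 0 to 1 in such fits. Over all genes, calls between preleukemic genotypes went from 123 to 249 with only the groups compared, 60 with array weights and 56 with the block. Calls between leukemic genotypes went from 25 to 1 with only the groups compared, 2 with the block, 3 with a sex term, 14 with the stricter filter and 15 with a granulocyte term, and calls of the difference of stage differences from 29 to 17 with the block. Replicate numbers did not pair the arrays: of 24 same-numbered pairs, 4 had a correlation over 0.1. With the block 10 members rose and 21 fell in Pax5+/- mice, where 4008 of 15647 genes rose and 4719 fell. In wild-type mice 2924 genes rose and 3191 fell, which became 3379 and 2177 with arrays centred on all probe sets and 2214 and 5741 centred on the genes tested. The causes were not tested. The alternatives without granulocyte-high arrays, with other probe sets and with centring on the genes tested were chosen after seeing the data.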
